A study of Mus musculus with 45 samples.

Results

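The 8 genes Abhd6, Trove2, Pfn2, Stbd1, H1f0, Camk1, Lipg and Il16 were followed across 9 groups of mouse dendritic cells, out of 23420 genes measured in each library. They were chosen by their expression: earlier results of the same data listed them as higher with 4PBA than with lipopolysaccharide (LPS) or medium, so their values in those comparisons are given as a description, with no test. All 8 were among the 10287 genes with enough counts to be tested. Of the 8, 3 (Abhd6, Trove2 and Pfn2) were higher with 4PBA than in every other group of their genotype, in WT and in KO cells. For the other 5 the description held in part. H1f0 and Camk1 were higher with 4PBA than in medium in WT but not in KO cells, and Stbd1 was higher on average in both but with overlapping libraries in KO cells. Lipg was also high with LPS, and Il16 was highest with rapamycin.

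4PBA, the salt of phenylbutyric acid, is used both as a chemical chaperone that eases the folding of proteins in the endoplasmic reticulum (ER) and as an inhibitor of class I and II histone deacetylases. These enzymes remove acetyl groups from histone tails, and their inhibition leaves chromatin more acetylated and raises the transcription of a limited set of genes while lowering that of others. The linker histone gene H1f0 is a classic gene of this response, induced by butyrate in many cultured cells. In dendritic cells, deacetylase inhibitors are known for changing the genes that toll-like receptor signals turn on.

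RNA was sequenced from dendritic cells grown from C57BL/6 bone marrow with 20 ng/ml GM-CSF and sorted on day 9 as live cells high in CD11c, 5 biological replicates a group. WT cells are labelled wild type, and KO cells carry floxed Bat3 and a Cre driven by the CD11c promoter (Bat3 fl/fl CD11c Cre), so that deletion is limited to cells that express CD11c. WT and KO cells were kept for 8 h in medium, LPS (the bacterial ligand of toll-like receptor 4), 4µ8C (an inhibitor of the RNase of the ER stress sensor IRE1) or 4PBA, and WT cells also in rapamycin (an inhibitor of the growth kinase complex mTORC1). No group is labelled as a vehicle control, doses are not given, and the labels do not say whether LPS was added together with 4PBA, 4µ8C or rapamycin. Bag6, the present name of the targeted gene Bat3, had group means of 12.7 to 15.1 CPM in WT and 7.53 to 9.75 in KO cells, so its mRNA was lower but not lost. CPM are counts scaled to a common library size.

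Libraries held 1509219 to 4737736 expected counts, the reads that RSEM assigned to each gene. At this depth the 8 genes gave few reads: of their 360 values, 19 were at 0, 151 were under 10 counts and the highest was 565. The summed level of 11 dendritic cell markers ran from 2134 to 7464 CPM. In bulk RNA, fewer cells of a type and less RNA per cell cannot be told apart. Each library's description carries a code of a letter and a number. Codes in row A or columns 1 and 12 are called outer here and the rest inner, and the labels do not say that these are plate positions. All 10 libraries of WT medium and WT LPS have outer codes. All libraries of WT 4PBA, KO 4PBA and KO medium have inner codes, so that 4PBA and code position cannot be told apart between WT 4PBA and WT medium or LPS, while KO 4PBA and KO medium share 1 kind of code. The remaining 4 groups (WT 4µ8C, WT rapamycin, KO LPS and KO 4µ8C) hold 7 outer and 13 inner libraries, and in these the effect of position was measured.

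The sequence just before the start of transcription is shown for Abhd6 and Trove2, which were highest with 4PBA in both genotypes, and for Stbd1, whose pattern differed between them. They are from RefSeq (GRCm38.p6), on the strand of the gene and ending before the first annotated transcript. Capitals mark the GC box GGGCGG and the CCAAT box, each searched on both strands with overlaps counted. Abhd6 lies at chr14:8002638-8002887 (+), Trove2, named Ro60 in RefSeq, at chr1:143777069-143777301 (-), and Stbd1 at chr5:92602801-92603040 (+).
Abhd6: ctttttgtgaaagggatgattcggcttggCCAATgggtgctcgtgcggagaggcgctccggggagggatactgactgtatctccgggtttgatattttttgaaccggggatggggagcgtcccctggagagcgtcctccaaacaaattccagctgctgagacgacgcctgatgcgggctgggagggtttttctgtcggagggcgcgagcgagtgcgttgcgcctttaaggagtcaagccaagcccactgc
Trove2: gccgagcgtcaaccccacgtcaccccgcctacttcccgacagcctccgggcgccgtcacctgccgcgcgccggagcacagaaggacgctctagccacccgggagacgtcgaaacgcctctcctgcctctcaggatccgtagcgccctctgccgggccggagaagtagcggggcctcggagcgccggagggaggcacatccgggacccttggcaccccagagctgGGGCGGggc
Stbd1: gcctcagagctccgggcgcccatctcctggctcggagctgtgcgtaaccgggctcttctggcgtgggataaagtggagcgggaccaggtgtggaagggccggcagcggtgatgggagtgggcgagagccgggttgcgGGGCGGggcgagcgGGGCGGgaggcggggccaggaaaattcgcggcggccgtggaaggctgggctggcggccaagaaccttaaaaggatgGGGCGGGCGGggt
The Abhd6 stretch holds 1 CCAAT box, the Trove2 stretch 1 GC box, and the Stbd1 stretch 4 GC boxes, of which the last 2 overlap. Of 32851 promoter windows in RefSeq, 32.7% hold GGGCGG and 33.8% hold CCAAT, so both motifs are common. The windows of H1f0 and Camk1 held neither of these nor TATAA or CACGTG, which stand in 22.8% and 6.02% of windows. These matches are a description of letters and not of binding.

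Abhd6, Trove2 and Pfn2 were the members whose 4PBA libraries stood above all others of both genotypes. Abhd6 encodes a membrane hydrolase of monoacylglycerols, among them an endocannabinoid. In WT 4PBA its level was 18.6, 18.8, 20.1, 18.9 and 15.1 CPM in replicates 1 to 5, and in WT medium 0.49, 0.535, 0.888, 0 and 1.95. In KO 4PBA it was 16.4, 18.2, 19.0, 23.6 and 14.8 CPM, and in KO medium 1.49, 1.37, 0.605, 1.25 and 1.44. Every 4PBA library was above every library of the other 7 groups, whose highest value was 3.71 CPM. The means were 18.3 ± 1.87 CPM in WT 4PBA and 18.4 ± 3.34 in KO 4PBA (SD, n = 5 each), 23.7 and 15.0 times those of medium. Below them, neighbouring groups overlapped, from KO 4µ8C at 2.81 ± 0.759 CPM down to WT rapamycin at 0.593 ± 0.63.

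Trove2 encodes Ro60, a ring-shaped protein that binds misfolded small RNAs and Y RNAs and is an autoantigen in lupus. It stood at 12.8, 13.7, 11.2, 15.2 and 16.3 CPM in WT 4PBA against 1.47, 5.61, 4.74, 4.54 and 7.6 in WT medium. In KO cells the values were 16.8, 12.6, 18.4, 17.3 and 11.7 CPM with 4PBA against 3.48, 3.78, 5.85, 4.24 and 4.68 in medium. The ranges did not meet, and the highest library outside 4PBA was in WT rapamycin at 9.05 CPM. The means with 4PBA were 2.89 (WT) and 3.49 (KO) times those in medium, and 3.8 and 8.12 times those with LPS.

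Pfn2 encodes a profilin, which binds actin monomers and feeds them to growing filaments, and is best known from neurons. Its values were 15.9, 10.3, 9.37, 11.3 and 8.84 CPM in WT 4PBA and 12.6, 13.9, 13.8, 11.7 and 16.8 in KO 4PBA. In medium they were 0.981, 1.6, 1.48, 2.84 and 1.74 CPM in WT and 4.23, 0.344, 1.81, 0.748 and 2.52 in KO. All libraries with 4PBA were above all others, which ranged from 0 to 4.23 CPM. The means were 6.44 times (WT) and 7.14 times (KO) those in medium, and the 7 groups without 4PBA, from 1.33 to 2.41 CPM, overlapped with one another.

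**Figure D1:**
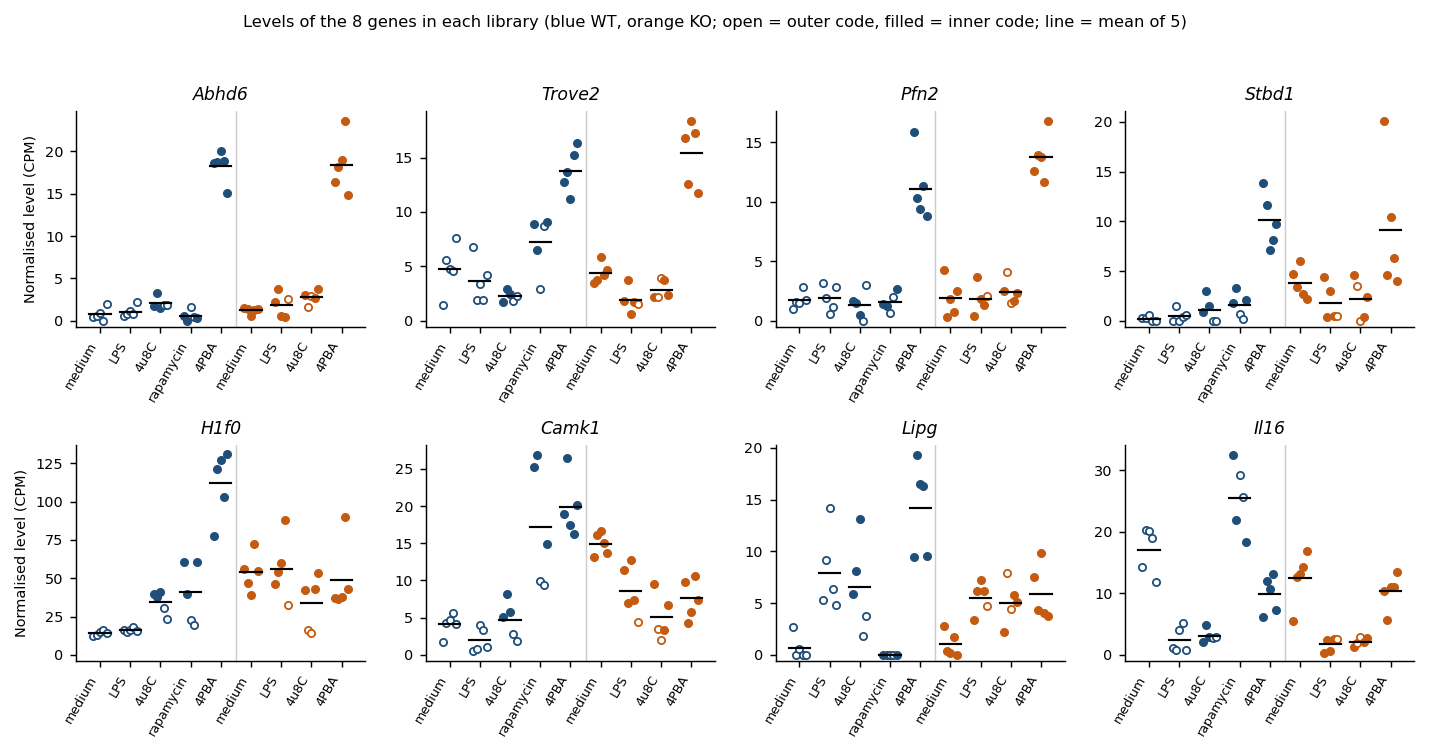
CPM of the 8 genes (vertical axis, 1 panel a gene) in each of the 45 libraries by group (horizontal axis), WT in blue and KO in orange, open points for outer and filled points for inner codes, lines at the mean of 5. Abhd6, Trove2 and Pfn2 are higher in both 4PBA groups than elsewhere, Trove2 having a mean of 7.23 CPM in WT rapamycin against 13.8 in WT 4PBA. H1f0, Camk1 and Stbd1 are low in the all-outer WT medium and WT LPS groups.

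WT 4PBA stood above every library of all 4 other WT groups for 5 members (Abhd6, Trove2, Pfn2, Stbd1 and H1f0), as it did for 202 genes or 1.96% of those tested. KO 4PBA stood above all 3 other KO groups for 3 members (Abhd6, Trove2 and Pfn2), as it did for 196 genes or 1.91%. Both held for these 3 members, which are among 68 such genes (0.661%). Because the rule used 4PBA, these shares are given as background and support nothing. Taken group by group, the WT 4PBA range lay above that of medium for 7 members (16% of genes), of LPS for 7 (11.2%), of 4µ8C for 7 (8.46%) and of rapamycin for 6 (20.6%). In KO cells it lay above medium for 4 members (12.1%), LPS for 4 (7.88%) and 4µ8C for 4 (7.05%).

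Stbd1, H1f0 and Camk1 separated WT 4PBA from WT medium and LPS but were not separated upwards in KO cells. They were also the 3 members that were higher in KO than in WT cells in medium, which rests on the same WT medium libraries. With code position in the fit none of these genotype differences reached an edgeR adjusted p under 0.05. Stbd1 encodes a protein that binds glycogen and anchors it to membranes. It was 13.9, 11.6, 7.14, 8.16 and 9.77 CPM in WT 4PBA and 0.245, 0.267, 0.592, 0 and 0 in WT medium. In KO 4PBA it was 20.1, 4.64, 10.4, 6.31 and 4.0 CPM and in KO medium 4.73, 3.44, 6.05, 2.74 and 2.16. The WT groups lay apart, and in KO cells 3 of 5 libraries with 4PBA were above all of medium and the ranges overlapped. The mean ratio to medium was 45.7 in WT, where medium gave only a handful of reads, and 2.38 in KO.

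H1f0 encodes linker histone H1.0, which is made outside S phase and builds up in cells that have stopped dividing. Its values were 77.7, 121, 127, 103 and 131 CPM in WT 4PBA against 12.5, 12.8, 14.8, 16.5 and 14.5 in WT medium. In KO cells they were 36.9, 36.2, 38.0, 89.9 and 42.8 CPM with 4PBA against 55.7, 46.7, 39.1, 72.5 and 54.8 in medium. The WT groups were far apart, whereas 3 of 5 KO 4PBA libraries were below all of KO medium and 1, replicate 4, was above them. The means were 112 ± 22.0 in WT 4PBA and 48.8 ± 23.1 in KO 4PBA, which are 7.86 and 0.907 times those of medium. KO replicate 4 had the highest H1f0 of its group in medium, LPS and 4PBA, but not in 4µ8C (42.8 CPM against 53.3 in replicate 5). It also had the highest Bag6 of each KO group, at 12.4 to 14.9 CPM. WT replicate 4 too had the highest H1f0 of its group in medium and LPS, without the highest Bag6. Whether the 2 genes are linked was not tested. H1f0 was the most abundant of the 8 per transcript length too, at 81.3 TPM (a level scaled to transcript length) in WT 4PBA against 24.5 for Camk1, 15.2 for Abhd6 and 2.45 for Trove2.

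Camk1 encodes calcium/calmodulin-dependent kinase I, which acts downstream of calcium entry. In WT 4PBA it was 18.9, 26.5, 17.4, 16.3 and 20.2 CPM, in WT medium 1.72, 4.28, 4.74, 5.68 and 4.13, and in WT rapamycin 25.2, 26.9, 9.87, 9.34 and 14.9. In KO cells it was 9.82, 4.31, 5.82, 10.6 and 7.42 CPM with 4PBA and 13.2, 16.1, 16.7, 15.0 and 13.7 in medium. The 4PBA libraries were thus all above medium in WT and all below medium in KO cells, and in WT they overlapped with rapamycin. The mean with 4PBA was 4.84 times that of medium in WT, 0.508 times in KO and 1.15 times that of rapamycin.

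**Figure D2:**
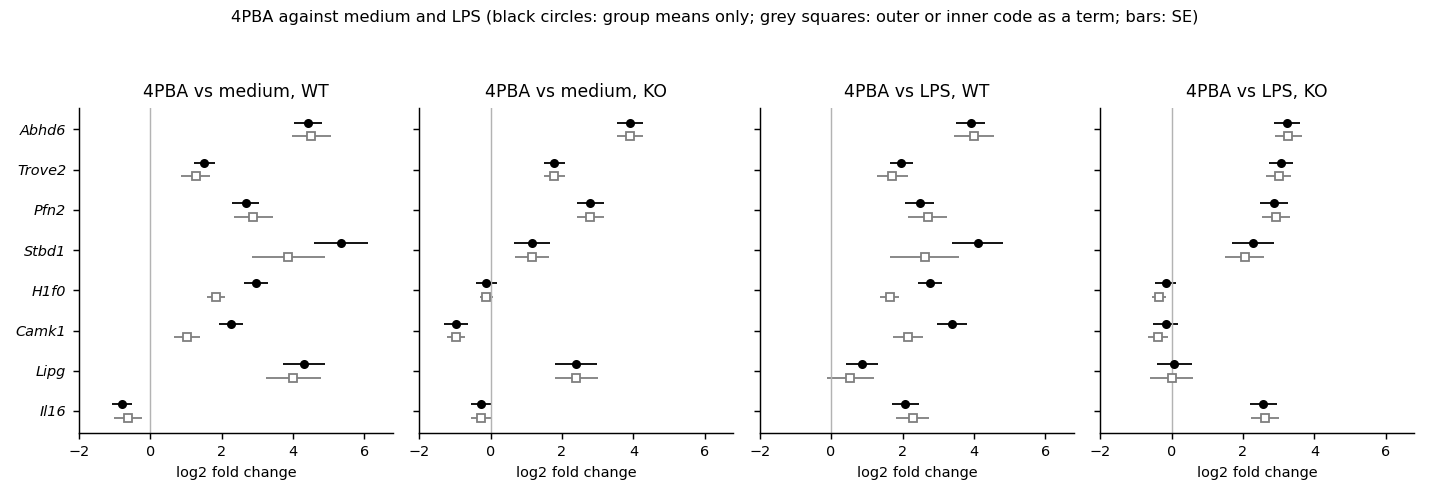
Log2 fold change of the 8 genes with 4PBA against medium and against LPS in WT and KO cells, with bars of 1 SE; black circles are from the fit of 9 group means and grey squares add code position as a term. In KO cells against medium H1f0 stands at -0.12 and Camk1 at -0.97, and in WT cells adding the term lowers H1f0 from 2.97 to 1.84, Camk1 from 2.27 to 1.04 and Stbd1 from 5.35 to 3.87.

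Fitted log2 fold changes with 4PBA against medium in WT cells were 4.42 (standard error, SE, 0.39) for Abhd6, 1.52 (SE 0.29) for Trove2 and 2.67 (SE 0.39) for Pfn2. With code position as a term they were 4.51, 1.27 and 2.89, and in KO cells 3.91, 1.78 and 2.79. For these 3 genes the size was thus close in both genotypes and with the term. H1f0 was at 2.97 (SE 0.33) in WT and -0.12 (SE 0.30) in KO, Camk1 at 2.27 (SE 0.34) and -0.97 (SE 0.33), and Stbd1 at 5.35 (SE 0.76) and 1.16 (SE 0.51). The term took the WT values of H1f0 and Camk1 to 1.84 (SE 0.26) and 1.04 (SE 0.36).

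Fold changes were also taken against LPS and 4µ8C. The log2 fold changes with 4PBA against LPS were 3.91 for Abhd6, 1.96 for Trove2, 2.48 for Pfn2 and 2.77 for H1f0 in WT, and 3.24, 3.06, 2.87 and -0.17 in KO. At the other end, Lipg was at 0.86 (SE 0.45) in WT and 0.07 (SE 0.49) in KO cells. Against 4µ8C, the other compound given to both genotypes, the values of Abhd6, Trove2 and Pfn2 were 3.10, 2.59 and 2.84 in WT and 2.72, 2.44 and 2.45 in KO. Stbd1 was at 4.10 (WT) and 2.28 (KO) against LPS and 3.06 and 1.90 against 4µ8C. Il16 was at 2.08 (WT) and 2.57 (KO) against LPS and 1.60 and 2.28 against 4µ8C.

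Code position itself was tested in the 4 groups that hold both kinds of code, none of which was given 4PBA. At an edgeR adjusted p under 0.05, named a call from here on, H1f0 and Camk1 were lower in outer than in inner libraries, and 3.59% of genes were called lower. H1f0 had a log2 difference of -1.14 (SE 0.15, edgeR adjusted p = 3.4e-06), and all outer libraries were below all inner ones in each of the 4 groups. In WT rapamycin the outer libraries had 19.8 and 22.7 CPM and the inner ones 39.9 to 60.7. In KO 4µ8C they had 14.2 and 16 CPM and the inner ones 42.2 to 53.3. Camk1 differed by -1.25 (SE 0.22, adjusted p = 0.00035), with outer libraries below inner ones in 3 of the 4 groups. Of the members tested, Lipg (-0.34, adjusted p = 0.76), Trove2 (-0.25, adjusted p = 0.79) and Il16 (0.19, adjusted p = 0.81) did not pass. Abhd6, Stbd1 and Pfn2 were under the count minimum of this test. Without that minimum Stbd1 was at -1.58 (adjusted p = 0.069), Abhd6 at 0.14 (adjusted p = 0.94) and Pfn2 at 0.18 (adjusted p = 0.91).

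**Figure D3:**
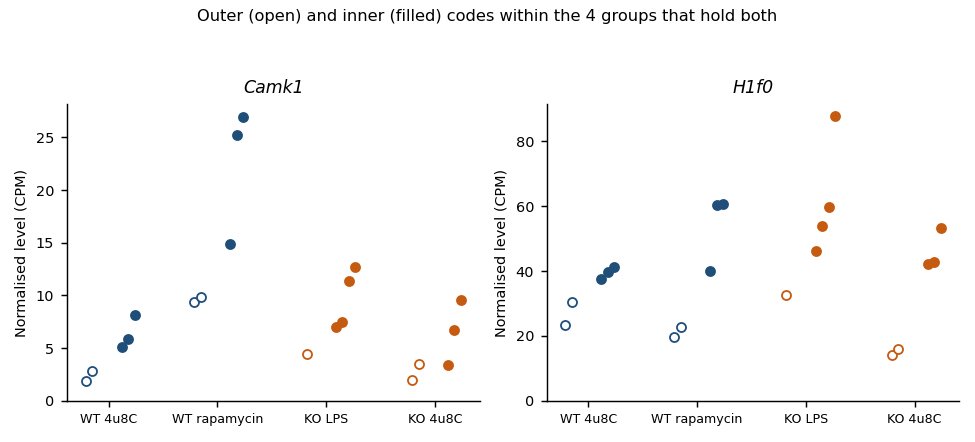
CPM of Camk1 and H1f0 in the libraries of the 4 groups that hold both kinds of code, open points for outer and filled points for inner codes. For H1f0 the outer libraries lie at 14.2 to 32.7 CPM and each is below every inner library of its group.

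Set against libraries with inner codes alone, WT 4PBA exceeded all 6 inner libraries of 4µ8C and rapamycin for Abhd6, Trove2, Pfn2, Stbd1 and H1f0. These libraries are part of those already compared above, so for these 5 members the result was fixed in advance. H1f0 was 77.7 to 131 CPM with 4PBA against 37.7 to 60.7 in those 6, and Stbd1 was 7.14 to 13.9 against 0.844 to 3.26. Camk1 overlapped, at 16.3 to 26.5 CPM against 5.06 to 26.9. In KO cells 4PBA exceeded all 12 other inner libraries for Abhd6, Trove2 and Pfn2, which also follows from the comparison above. How many of all genes show either pattern was not counted. No inner library of WT medium or WT LPS exists for this comparison.

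Lipg and Il16 departed from the description in another way. Lipg encodes endothelial lipase, a secreted phospholipase that acts on high-density lipoprotein. With 4PBA it was 9.46, 19.3, 16.5, 16.3 and 9.54 CPM in WT and 7.48, 4.31, 9.81, 4.05 and 3.71 in KO. With LPS it was 5.25, 9.13, 14.2, 6.37 and 4.77 CPM in WT and 3.32, 6.18, 7.26, 6.12 and 4.67 in KO. In WT medium the values were 2.7, 0, 0.592, 0 and 0 CPM, and all 5 rapamycin libraries were at 0. The 4PBA libraries were above medium in both genotypes and overlapped with those of LPS and of 4µ8C. Against the rapamycin group, where 3 counts in all would give 0.161 CPM, WT 4PBA was at least 88.5-fold higher and WT LPS at least 49.5-fold.

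Il16 encodes the precursor of interleukin-16, whose C-terminal part is released and attracts cells that carry CD4. In WT cells it was 6.08, 12, 10.7, 13.2 and 7.21 CPM with 4PBA, 14.2, 20.3, 20.1, 19.0 and 11.9 in medium, 1.05, 0.761, 3.99, 5.25 and 0.841 with LPS, and 32.5, 22.0, 29.3, 25.6 and 18.4 with rapamycin. In KO cells it was 10.3, 5.64, 11, 11 and 13.4 CPM with 4PBA, 5.47, 12.7, 13.1, 14.2 and 16.9 in medium and 0.369, 2.47, 0.605, 2.62 and 2.6 with LPS. In both genotypes the 4PBA libraries were above those of LPS and 4µ8C, and they overlapped with medium. In WT cells they were below rapamycin without overlap. Il16 was thus higher than with LPS, at 4.14 (WT) and 5.94 (KO) times, and not higher than in medium, at 0.575 and 0.824 times.

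Tests that the choice of the members did not use were those between genotypes, of LPS against medium and of 4µ8C against rapamycin. Those in medium, LPS and 4PBA share libraries with the comparisons that chose the members. That choice favoured low values in medium and LPS and high values with 4PBA, so these tests are not independent of it. In medium 3 members were higher in KO cells (6.61% of genes were called higher). Stbd1 had a log2 fold change of 4.00 (SE 0.82, edgeR adjusted p = 0.00049), Camk1 of 1.87 (SE 0.34, adjusted p = 1e-04) and H1f0 of 1.92 (SE 0.32, adjusted p = 5.7e-05). For each, all 5 KO libraries were above all WT libraries, as for 5.92% of genes. WT medium is all outer and KO medium all inner: with position as a term the values were 2.52 (adjusted p = 0.36), 0.63 (adjusted p = 0.62) and 0.78 (adjusted p = 0.22), and none passed. When these 2 groups were fitted alone with replicates as blocks, Stbd1 was under the count minimum and not tested.

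With LPS, Camk1 and H1f0 were higher in KO cells (4.31% of genes called higher). Camk1 was 0.525, 0.761, 3.99, 3.37 and 1.12 CPM in WT and 11.4, 7.0, 12.7, 7.43 and 4.41 in KO, a log2 fold change of 2.18 (SE 0.45, adjusted p = 0.0011). H1f0 was 16.3, 14.8, 16.5, 18.4 and 15.7 CPM in WT and 46.1, 54.0, 59.9, 87.8 and 32.7 in KO, a log2 fold change of 1.77 (SE 0.34, adjusted p = 0.00066). Neither range overlapped, as for 3.23% of genes. With position as a term Camk1 was at 1.15 (adjusted p = 0.17) and H1f0 at 0.83 (adjusted p = 0.097).

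With 4PBA, where both genotypes have inner codes, Camk1 was lower in KO cells (0.311% of genes called lower), by -1.38 (SE 0.33, edgeR adjusted p = 0.029), and all 5 KO libraries were below all WT libraries, as for 2.27% of genes. The call was lost without WT replicate 1, 2 or 3 or KO replicate 1, 2, 3 or 5 in turn (adjusted p up to 0.1) and when low genes were kept (adjusted p = 0.077). It held with the term (adjusted p = 0.00081). H1f0 was at -1.18 (SE 0.29, adjusted p = 0.054), with 4 of 5 KO libraries below all WT libraries. It passed with the term (adjusted p = 0.00015), among inner libraries (adjusted p = 0.0057), in DESeq2 (adjusted p = 0.01) and without KO replicate 4 (-1.54, adjusted p = 0.0058). Lipg was at -1.28 (SE 0.46, adjusted p = 0.23), and passed when the 2 groups were fitted alone (adjusted p = 0.021). Abhd6 (0.02, SE 0.28), Trove2 (0.14, SE 0.26), Pfn2 (0.31, SE 0.32), Il16 (0.08, SE 0.30) and Stbd1 (-0.20, SE 0.48) did not pass.

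With 4µ8C no member passed between genotypes (0.953% of genes called). The member nearest to a call was Pfn2, at 0.70 (SE 0.51, adjusted p = 0.6). None had an unadjusted p under 0.05, and DESeq2 called none. H1f0, at -0.03 (SE 0.32), was 23.5 to 41.2 CPM in WT and 14.2 to 53.3 in KO.

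**Figure D4:**
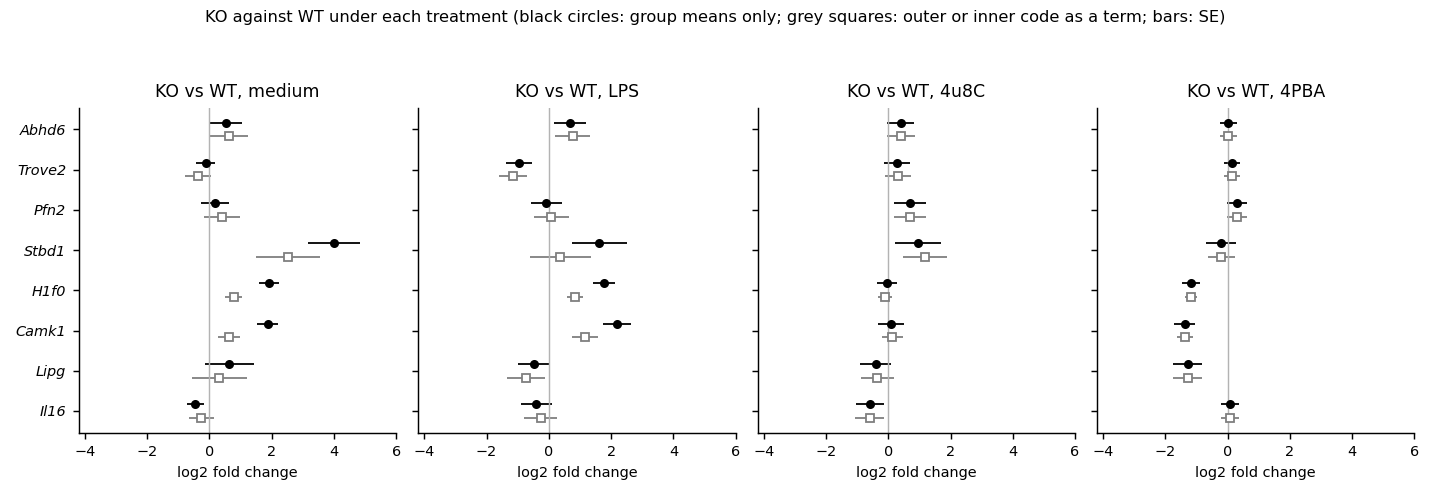
Log2 fold change of the 8 genes in KO against WT cells in medium, LPS, 4µ8C and 4PBA, with bars of 1 SE; black circles are from the fit of group means and grey squares add code position. In the fit of group means Camk1 and H1f0 stand near 2 in medium and LPS, near 0 in 4µ8C and at -1.38 and -1.18 in 4PBA. With code position added they are at 0.63 and 0.78 in medium and at 1.15 and 0.83 in LPS.

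LPS raised Lipg and lowered Il16 in both genotypes. The members were chosen by comparing 4PBA with these medium and LPS libraries, so the directions found here are not independent of the choice. Lipg rose by 3.45 (SE 0.63, edgeR adjusted p = 2.4e-05) in WT and 2.33 (SE 0.60, adjusted p = 0.0022) in KO cells on the log2 scale, all LPS libraries being above all of medium. Il16 had a log2 fold change of -2.89 (SE 0.36, adjusted p = 6e-09) in WT and -2.82 (SE 0.38, adjusted p = 3.3e-08) in KO, all LPS libraries being below all of medium. The 2 members called in WT cells stand beside 40.1% of all genes called, and the 3 in KO cells beside 35.2%. The other called member in KO cells was Trove2, at -1.28 (SE 0.38, adjusted p = 0.0063), whose WT value was -0.44 (SE 0.34, adjusted p = 0.32). Camk1 was at -1.11 (adjusted p = 0.061) in WT, which passed with the position term (adjusted p = 0.017), and at -0.80 (adjusted p = 0.051) in KO, which passed with replicates as blocks (adjusted p = 0.012). Leaving out WT medium replicate 1 or WT LPS replicate 3 or 4 gave adjusted p = 0.027 to 0.031 in WT, and leaving out KO LPS replicate 1 or 3 gave 0.04 and 0.026 in KO. Abhd6, Stbd1, Pfn2 and H1f0 did not pass in either genotype, except Stbd1 in KO without LPS replicate 1 (-1.72, adjusted p = 0.047), H1f0 being at 0.20 (SE 0.36) and 0.05 (SE 0.30).

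Between 4µ8C and rapamycin in WT cells 5 members differed, where 54.6% of all genes were called. Abhd6 was higher with 4µ8C, by 1.76 (SE 0.55, edgeR adjusted p = 0.0057), at 1.46 to 3.33 CPM against 0 to 1.65. Lipg was higher too, at 1.85 to 13.1 CPM against 0 in all 5 libraries, at least 40.7-fold. Lower with 4µ8C were Il16 at -2.99 (SE 0.34, adjusted p = 1.8e-10), Camk1 at -1.80 (SE 0.37, adjusted p = 4.9e-05) and Trove2 at -1.67 (SE 0.36, adjusted p = 0.00011). Stbd1, Pfn2 and H1f0 did not pass. Abhd6 had only 2 to 9 counts a library with 4µ8C and 0 to 5 with rapamycin. When these 2 groups were fitted alone with replicates as blocks, Abhd6, Lipg and Trove2 were under the count minimum and not tested. Their calls thus rest on a minimum that counts in other groups, those with 4PBA among them, helped to meet.

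Other genes known for responding to deacetylase inhibitors moved in both directions with 4PBA. Of 14 tested, leaving out H1f0, 6 were higher and 4 lower against medium in WT cells, where 22.4% of all genes were called higher and 21.3% lower, and the median log2 fold change was 0.34 against -0.01 over all genes. In KO cells 5 were higher and 3 lower (17.0% and 16.2% of all genes), with a median of 0.18 against -0.02. With code position as a term 5 were higher and 2 lower in WT cells. Called in both genotypes were Cdkn1a, the cell cycle inhibitor p21 (0.50 in WT, 0.52 in KO), Gadd45b, a stress response gene (1.36, 0.87), and the metallothionein genes Mt1 (0.55, 0.79) and Mt2 (0.88, 1.03), all higher, as was Hist1h1c, described below. The thioredoxin inhibitor Txnip (-0.69, -0.44) and the actin-severing gelsolin gene Gsn (-0.83, -0.91), both known as induced by these inhibitors in other cells, were lower, and so was the histone gene Hist2h2be (-1.28, -1.50), whose WT call was lost with the term (adjusted p = 0.077). LPS, compared with the same medium libraries, gave Cdkn1a 1.06 and 1.24, Gadd45b 1.77 and 1.47, Txnip -0.79 and -0.81 and Gsn -1.07 and -1.10. Against LPS, 3 of the 14 were higher and 1 lower with 4PBA in WT cells (15.0% and 12% of all genes), and 1 higher and 2 lower in KO (12.9% and 11.5%), Cdkn1a being lower in both (-0.56, -0.72). With the term the WT counts against LPS were 2 and 0, and Cdkn1a no longer passed there (-0.41, adjusted p = 0.059).

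Linker histone genes other than H1f0 were higher with 4PBA than in medium in both genotypes. Of 2 tested, Hist1h1c (histone H1.2) was at 0.87 (SE 0.31, edgeR adjusted p = 0.02) in WT and 1.05 (SE 0.30, adjusted p = 0.0069) in KO, and Hist1h1e (histone H1.4) at 1.73 (SE 0.36, adjusted p = 0.00011) and 1.25 (SE 0.36, adjusted p = 0.0061). Against LPS both passed in WT and neither in KO cells, but with the term neither passed in WT (adjusted p = 0.15 and 0.06). The WT call of Hist1h1c against medium was lost with the term too (adjusted p = 0.11), and that of Hist1h1e held (adjusted p = 0.0052). Among 9 deacetylase genes, Hdac1 was higher than in medium (0.83 in WT, 0.72 in KO) and Hdac4 lower (-1.19, -0.98), as they were with LPS (1.09 and 0.87 for Hdac1, -1.59 and -1.63 for Hdac4). Among 10 acetyltransferase genes, 2 were higher and 2 lower than in medium in WT (1 and 1 with the term), and 1 and 3 in KO. Over all genes the shares without the term were 22.4% and 21.3% in WT and 17.0% and 16.2% in KO. Ep300, which encodes the coactivator p300, was lower with 4PBA than in medium (-0.66, -0.92) and than with LPS (-0.55, -0.66). Kat5 was lower than in medium too (-0.48, -0.47; WT adjusted p = 0.093 with the term), and Hat1 was higher (0.85, 0.88).

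Genes that work with the members moved in both directions with 4PBA. Over all genes, 22.4% were called higher and 21.3% lower than in medium in WT cells, and 17.0% and 16.2% in KO cells. Among 9 other enzymes and receptors of monoacylglycerol and endocannabinoid metabolism, 3 were higher and 4 lower with 4PBA than in medium in WT cells (2 and 2 with code position as a term), and 1 each in KO. Faah, which degrades anandamide, was higher (2.11 in WT, 3.39 in KO) and the cannabinoid receptor gene Cnr2 lower (-1.59, -1.37), and both went the same way with LPS. Of 11 other genes for actin monomer binding, 8 were lower in WT (5 with the term) and 7 in KO, with medians of -0.46 and -0.49. They include the abundant profilin gene Pfn1 (-0.85, -0.93) and the cofilin gene Cfl1 (-0.46, -0.62), whose product severs filaments, while Cfl2 was the 1 called higher (0.45, 0.47). Pfn2 thus stood opposite to Pfn1, whose mean fell from 659 to 365 CPM in WT and from 603 to 316 in KO.

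Of 5 partners of Ro60, the lupus autoantigen gene Trim21 (Ro52) was higher with 4PBA (2.15 in WT, 1.60 in KO) and to a like size with LPS (2.18, 1.77), and Ssb (La) was at -0.31 and -0.02 and did not pass. Of 15 glycogen genes beside Stbd1, 4 were higher and 1 lower in WT (2 and 1 with the term), and 2 and 3 in KO. They include the phosphorylase genes Pygb (0.37, 0.44; WT 0.17 with the term, adjusted p = 0.54) and Pygl (-0.78, -0.65). Of 6 lipase genes beside Lipg, the lysosomal lipase gene Lipa (-1.81, -1.26) and the lipoprotein lipase gene Lpl (-1.21, -0.68) were lower in both genotypes. Of 7 calmodulin and calmodulin kinase genes beside Camk1, Camk2d was higher in WT (1.23) and lower in KO cells (-1.02), and with the term the WT call was lost (0.42, adjusted p = 0.26). Among 20 genes of ER chaperones and stress, 1 was higher and 6 lower in WT (1 and 2 with the term) and 0 and 4 in KO. The counts without the term in this paragraph stand beside 22.4% of all genes called higher and 21.3% lower in WT. In KO cells these shares were 17.0% and 16.2%. Xbp1 was at -0.55 and -0.90, and Ddit3 at -0.52 (-0.32 with the term, adjusted p = 0.25) and -0.65.

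The members did not share 1 profile. Over the 9 group means of log2 CPM, the correlation between pairs of members ran from -0.69 (Lipg and Il16) to 0.92 (Abhd6 and Pfn2), with a median of 0.51 over 28 pairs. Within groups the median was 0.02, and the highest, 0.54, was between Camk1 and H1f0, which fell to 0.19 within groups and code positions. These points share libraries and depth, and the correlations are descriptions. The genes whose 9 means were most like the mean of the members were Fam172a (r = 0.98), Kif1b (0.96), Rb1 (0.96), Wdr6, Gpr56, Ppp2r5b and Dhx32 (0.95 each). Their changes were mostly smaller: Fam172a went from 20.5 to 29.0 CPM between medium and 4PBA in WT and from 22.6 to 26.5 in KO, whereas Wdr6 went from 5.79 to 17.6 and from 7.16 to 17.2.

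For single members, the closest genes were Cd24a for Abhd6 (r = 0.98), C330018D20Rik for Trove2 (0.97), Kif1b for Pfn2 (0.97), Asap1 for Stbd1 (0.97), Cysltr2 for Lipg and Nudt5 for Il16 (0.99 each). The closest to Camk1 was Wbp1 (0.99) and to H1f0 Tbc1d10a (0.97), and both were themselves lower in outer libraries, by -0.61 (edgeR adjusted p = 0.017) and -0.86 (adjusted p = 0.0026).

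Markers of other cell types were summed beside these values, those of T cells because Il16 is known from lymphocytes. The 6 T cell markers summed to 1.6 to 21.6 CPM per library and were carried by Lck, whose group mean was 13.0 CPM in 4PBA cells, 3.16 in WT medium and 2.17 in rapamycin. Cd3g was at 0 in every library and Cd3e had a highest group mean of 0.0893 CPM. Lck was thus lowest where Il16 was highest. By contrast, Cd2 (0.713 CPM) and Cd5 (0.407, against 0.398 in WT 4PBA) had their highest group means in WT rapamycin, at low levels. Summed markers of mast cells and basophils went the other way from Lck and reached their highest value in WT rapamycin. They were 6.09 to 17.8 CPM there, 1.18 to 5.4 in WT medium and 1.12 to 3.42 in WT LPS. Of these markers Cpa3, Mcpt8, Fcer1a and Prss34 were at 0 in every WT library. The sum in WT rapamycin thus came only from Kit, Ms4a2 and Gata2, and does not show such cells to be present. The range in WT 4PBA, 1.35 to 7.59 CPM, overlapped with that of rapamycin, as did those of some KO groups. Neutrophil markers summed to 3.67 to 24.9 CPM and those of natural killer cells to at most 1.7. Summed markers of B cells and erythroid cells were under 1 CPM, those of macrophages ranged from 267 to 1181 and those of plasmacytoid dendritic cells from 138 to 348. Their part in the results was not tested.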

How the data were processed

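Gene-level values were read from 45 deposited tables, 1 per library, with the same 23420 genes each. The expected counts were made by the authors with RSEM, per the file headers and the submitters' processing notes, and 9.09% were not whole. TPM were scaled by RSEM before deposit, per the file headers, and are printed only where levels of different genes are compared. For aligner, build, annotation and tool versions: not given in the sources used here. The RNA precursor Rn45s took 8.39% to 12.73% of counts.

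Counts were rounded and tested with edgeR 4.0.16 in R 4.3.3 (TMM factors, filterByExpr, robust quasi-likelihood F test, two-sided, group means of all 45 libraries in 1 fit with 36 residual degrees of freedom). Genes were called at a Benjamini-Hochberg adjusted p under 0.05 over 10287 genes. The count minimum was applied over all 9 groups, so a gene could be tested between 2 groups that held few of its reads. SE were derived from the F statistic, and CPM use the TMM factors. Code position was tested with group as a covariate in 20 libraries of 4 groups, over 9557 genes. limma 3.58.1 was loaded as edgeR's base, and DESeq2 1.42.0 was a second tool. The script was tested on simulated data. Floors (3 counts) cover counting error only, whereas SE include the spread between libraries.

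The members and the gene lists were chosen with earlier results of these data known, and the lists came from textbook knowledge. Named were the 8 members, genes of the lists, Bag6, the 10 genes most correlated with the members' mean profile and the gene most correlated with each member, the last 2 among genes of at least 10 CPM in their highest group. The labels call replicates biological without naming animals, so p-values measure the spread between these samples. Alternatives were another scaling, no filter, code position as a term, only the groups compared, replicate blocks, DESeq2 and leaving out libraries. Replicate numbers were taken to pair libraries where every same-numbered pair's deviations from the group means correlated over 0.1 across 2000 abundant genes. This held for 4PBA against medium and against LPS in both genotypes, and in KO cells for LPS against medium (0.3 to 0.6), 4µ8C against medium (0.19 to 0.68) and 4PBA against 4µ8C (0.51 to 0.63).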

Additional observations from a re-analysis of the deposited data

Results flagged for a closer look

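Of 72 groups of 5 values examined, 4 held a value far from the other 4, about as many as the 1 in 20 that chance gives. H1f0 in KO 4PBA replicate 4 was 89.9 CPM, and the other libraries of the group were 36.2 to 42.8. Abhd6 was 3.33 CPM in WT 4µ8C replicate 2 against 1.46 to 1.86 in the others, and 0.605 CPM in KO medium replicate 3 against 1.25 to 1.49. Lipg was 2.7 CPM in WT medium replicate 1 against 0 to 0.592.

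Camk1 moved in opposite ways between groups with no overlap of libraries. With 4PBA against medium its log2 fold change was 2.27 in WT and -0.97 in KO cells, and between KO and WT cells it stood at -1.38 with 4PBA against 2.18 with LPS and 1.87 in medium. These differences between changes were not tested. WT medium and WT LPS have outer codes, and Camk1 was lower in outer than in inner libraries by -1.25 on the log2 scale where both kinds occur.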

How the results depend on the processing

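Of 1029 values for 61 tests of single members under alternatives, 958 kept direction and side of the threshold, 13 lost and 18 gained a call, and 40 changed sign, none of them called (smallest adjusted p 0.53). With code position as a term, KO against WT gave 68 in place of 918 genes in medium, 161 in place of 623 with LPS and 148 in place of 51 with 4PBA. The same term gave 2790 in place of 4495 for 4PBA against medium and 1526 in place of 2781 for 4PBA against LPS in WT cells. For KO against WT with 4PBA, other counts were 173 among inner libraries (chosen after seeing the data), 198 with only the 2 groups, 213 with a replicate block, 86 with DESeq2 and 28 without all KO libraries numbered 4. With 4µ8C, 98 genes became 19 with only the 2 groups, 9 with a replicate block, 167 with DESeq2 and 56 without the KO libraries numbered 4. The cause was not tested. Where numbers pair the libraries the block moved no count by over 1.5 times (LPS against medium in KO 3542 in place of 3618). Leaving out libraries, KO against WT ranged over 621 to 992 genes in medium, 488 to 723 (LPS), 42 to 124 (4µ8C) and 22 to 61 (4PBA). Moves of over 1.5 times came in 4µ8C without WT replicate 3 (42) or 4 (61) or KO replicate 1 (53) or 4 (58). In 4PBA they came without WT replicate 1 (24), 2 (29), 3 (31) or 4 (31) or KO replicate 1 (23) or 4 (22). LPS against medium gave 3714 to 3997 in WT and 3090 to 3619 in KO, 4µ8C against rapamycin 5260 to 5630, and code position 265 to 409. For 4PBA the ranges were 4132 to 4341 (medium, WT), 2903 to 3330 (medium, KO), 2461 to 2596 (LPS, WT) and 1936 to 2356 (LPS, KO).

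The members whose uncalled values changed sign had these ranges when libraries were left out. In medium, KO against WT, Lipg ran from -0.13 to 2.68, Trove2 from -0.35 to 0.13 and Pfn2 from -0.33 to 0.42. In LPS Pfn2 ran from -0.43 to 0.16 (0.08 with the term) and Il16 from -0.69 to 0.23. In 4µ8C Camk1 ran from -0.29 to 0.40 and H1f0 from -0.25 to 0.16 (0.22 among inner libraries). In 4PBA Abhd6 ran from -0.09 to 0.09, Stbd1 from -0.67 to 0 and Il16 from -0.05 to 0.24. For LPS against medium Abhd6 ran from -0.06 to 1.23 and Pfn2 from -0.03 to 0.43 in WT, and Pfn2 from -0.42 to 0.44 and H1f0 from -0.16 to 0.20 in KO. For 4µ8C against rapamycin Pfn2 ran from -0.60 to 0.15. Of the 360 values of the members, 151 were under 10 counts, which limits what could be detected at low levels.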
